A study of Mus musculus with 8 samples.

Results

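The axon guidance ligands and receptors of the fetal mouse gonad were followed over 8 microarrays. The genes were taken by name from the array annotation: the semaphorins, the plexins and neuropilins, the Eph receptors, the ephrins, the Slit and Robo genes, the netrins and Unc5 genes, and the Nogo receptors. They made up 71 of the 18193 genes named on the array, and 153 of the 45037 probe sets tested, since 45 of the genes had more than 1 probe set. The rule used names alone and no measured value, but it was chosen with earlier results of these data known. A gene is reported by the probe set with its highest mean over the 8 arrays unless another is named. Levels are on the log2 scale, where 1 unit is a factor of 2, and levels of different probe sets were not set against each other.

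All samples came from embryonic day 13 and, per the labels, from the strain C57BL6/J-Tg92. The 4 groups had 2 arrays each: EGFP-positive cells sorted from XX gonads, labelled pre-granulosa cells; EGFP-positive cells sorted from XY gonads, labelled Sertoli cells; whole XX gonads, labelled ovary; and whole XY gonads, labelled testis. About 30000 sorted cells went into a pre-granulosa sample, about 22000 into a Sertoli sample and 4 gonads into a gonad sample, and about 20 ng of total RNA was amplified for each array. The EGFP transgene is carried by every group. The labels do not state which promoter drives it; in the published line it is Sry regulatory sequence, which is active in the supporting cells of both sexes. The labels do not say whether replicates came from separate litters, so p-values measure only the spread between these samples, which may be technical.

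The cell labels were checked against markers. The mean of 11 Sertoli markers was 11.02 and 11.13 in the Sertoli arrays against 6.93 and 7.67 in the pre-granulosa arrays. The mean of 8 pre-granulosa markers was 10.34 and 9.88 in the pre-granulosa arrays against 5.89 and 5.72 in the Sertoli arrays. The root mean square SD of the 153 probe sets was 0.559 in pre-granulosa, 0.465 in Sertoli, 0.337 in ovary and 0.199 in testis arrays. The first pre-granulosa array stood apart in RNA quality: its 3' probe sets exceeded its 5' probe sets by 3.08 (actin) and 3.68 (Gapdh) log2 units, against 0.72 to 2.69 in the other arrays. A reading at or under 4.78, the highest reading of Y-linked probe sets in XX arrays, was taken as background. By this measure 16 of the 153 probe sets were at background in all 8 arrays.

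Guidance genes were named for their work in the growing nervous system, where secreted or membrane-bound ligands attract or repel the tip of an axon. Semaphorins signal through plexins, and the secreted class 3 semaphorins mostly need a neuropilin as co-receptor. Slits bind Robo receptors, netrins bind DCC and Unc5 receptors, and ephrins on one cell bind Eph receptors on its neighbour. The Nogo receptors are lipid-anchored proteins, of which the founding member, Rtn4r, binds myelin-associated inhibitors of axon growth. The same systems guide endothelial cells, sort cells at tissue boundaries and shape branching organs.

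Of the 5 genes that passed the test between the 2 sorted cell types, 4 had a promoter entry in the RefSeq table of GRCm38.p6. Their promoters are shown because these members moved between the cell types, and so that the start regions of the genes that rose can be read beside that of the gene that fell. Each window runs from 250 bases before to 50 bases after the gene's start, 5' to 3' on the gene's strand. It was searched on both strands for short motifs of factors known in the gonad: ACAATG as one SOX motif, the related letters ACAAAG as the other, GTAAACA for the forkhead family, AAGGTCA for the nuclear receptor Nr5a1, AGATAA for the zinc finger family that includes Gata4, and ATCAAAG for the partners of beta-catenin, which overlaps the second SOX motif. Matches on either strand are in capitals. Plxnc1 lies on the minus strand at chr10:94944796-94945095, Sema3g on the plus strand at chr14:31217623-31217922, Robo4 on the plus strand at chr9:37401722-37402021, and Sema3a on the plus strand at chr5:13396534-13396833.
Plxnc1: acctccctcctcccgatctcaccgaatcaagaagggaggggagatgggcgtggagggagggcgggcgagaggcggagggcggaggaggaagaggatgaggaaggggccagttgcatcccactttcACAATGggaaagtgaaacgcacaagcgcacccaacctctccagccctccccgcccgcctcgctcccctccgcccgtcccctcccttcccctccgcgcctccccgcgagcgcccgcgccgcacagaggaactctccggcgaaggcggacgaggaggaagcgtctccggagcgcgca
Sema3g: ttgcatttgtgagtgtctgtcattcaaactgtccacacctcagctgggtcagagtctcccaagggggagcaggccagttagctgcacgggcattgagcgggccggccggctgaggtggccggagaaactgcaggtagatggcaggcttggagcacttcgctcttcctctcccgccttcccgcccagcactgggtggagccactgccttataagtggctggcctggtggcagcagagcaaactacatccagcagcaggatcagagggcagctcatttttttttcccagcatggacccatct
Robo4: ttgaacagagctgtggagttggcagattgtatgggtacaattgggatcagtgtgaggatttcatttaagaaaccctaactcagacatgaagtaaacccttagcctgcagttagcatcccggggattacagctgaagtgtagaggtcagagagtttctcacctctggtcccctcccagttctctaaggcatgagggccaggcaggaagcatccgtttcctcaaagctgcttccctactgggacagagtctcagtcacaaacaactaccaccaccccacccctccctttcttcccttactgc
Sema3a: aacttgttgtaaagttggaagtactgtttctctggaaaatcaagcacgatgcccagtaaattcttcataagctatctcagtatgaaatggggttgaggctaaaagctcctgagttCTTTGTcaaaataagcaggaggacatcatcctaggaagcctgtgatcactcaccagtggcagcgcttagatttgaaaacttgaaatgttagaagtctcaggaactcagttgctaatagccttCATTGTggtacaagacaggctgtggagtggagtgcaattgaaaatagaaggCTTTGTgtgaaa

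The Plxnc1 window held 1 match, ACAATG. The Sema3a window held 3 matches: 1 to ACAATG and 2 to ACAAAG, each on the strand opposite to the gene. The Sema3g and Robo4 windows held none of the letters searched, which says only that these letters are not in these windows. Their base composition also differed: G and C made up 69% of the Plxnc1 window, 58.7% for Sema3g, 50.3% for Robo4 and 41.3% for Sema3a. Over all 32851 promoters of the table, 12.6% held ACAATG and 18.7% held ACAAAG. Of the 76 promoters of the 60 guidance genes with an entry, 10.5% and 13.2% did. GTAAACA was in 3.65% of all promoters and in 0 of the 76; AAGGTCA in 4.72% and 5.26%; AGATAA in 11.2% and 3.95%; and ATCAAAG in 3.73% and 1.32%. A match is a description of letters and not a bound site.

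**Figure D1:**
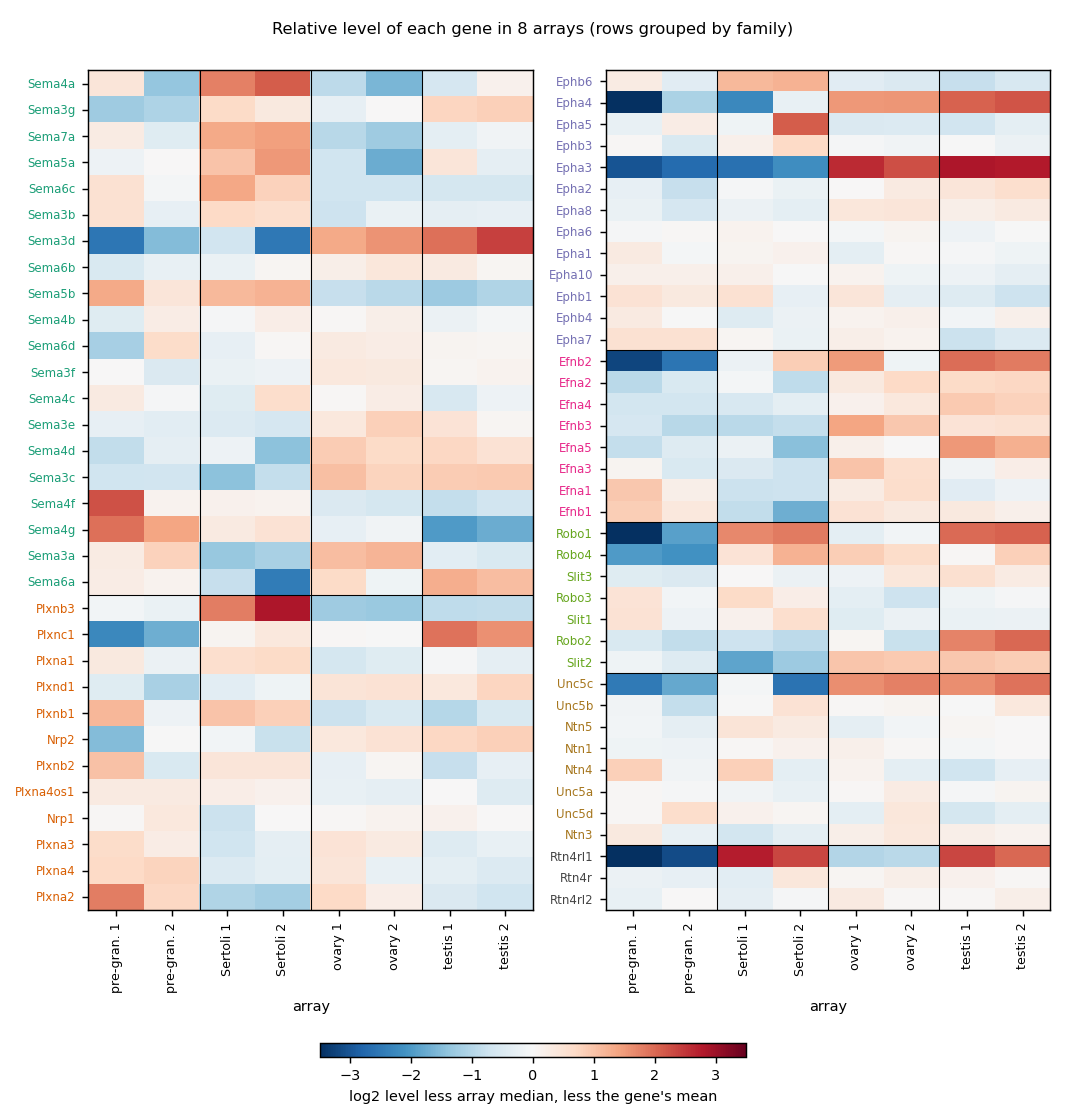
Relative level of the 71 guidance genes in the 8 arrays. Each row is a gene (reported probe set), coloured by its log2 level less the array's median and less the gene's own mean over the 8 arrays; label colours mark the 7 families. Rtn4rl1 and Robo1 are lowest in the pre-granulosa arrays, and Epha3 is low in all 4 sorted-cell arrays.

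The comparison of Sertoli with pre-granulosa cells asks how the supporting cells of the 2 sexes differ. A probe set was called when its adjusted p was at or under 0.01 in limma, with Benjamini-Hochberg adjustment over all 45037 probe sets. Of the 71 genes, 5 were called, against 2.67% of all genes. Rtn4rl1, Robo4, Plxnc1 and Sema3g rose in Sertoli cells, and Sema3a fell. In probe sets this was 6 of 153 (3.92%), 5 higher and 1 lower, and 1.81% of all probe sets were called, 0.999% higher and 0.813% lower. The median difference was 0.10 over the 153 and 0.01 over all probe sets. At an adjusted p of 0.05 the counts were 23 of 153 (15%) and 5.5% of all probe sets. Fewer cells of a type and less RNA per cell cannot be told apart in samples of this kind.

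Among the Nogo receptors, Rtn4rl1 (also known as NgR3) differed most of all 71 genes. Its probe set 1436868_at read 4.39 and 5.59 in the pre-granulosa arrays and 11.46 and 11.05 in the Sertoli arrays. The difference was 6.27 ± 0.40 (SE) with an adjusted p of 0.00142 (limma). Only 1 of the 2 pre-granulosa readings was above background, so no fold is given, and the difference was 5.67 without pre-granulosa replicate 1 and 6.87 without replicate 2. Its other probe set, 1455664_at, gave the same order: 4.52 and 5.08 against 8.66 and 8.65, a difference of 3.86 ± 0.20 with an adjusted p of 0.00113. Both Sertoli arrays lay far above both pre-granulosa arrays in each probe set. Markers of neurons and Schwann cells, where Nogo receptors are best known, had a mean over 7 genes of 4.63 and 4.84 in pre-granulosa and 5.64 and 5.52 in Sertoli arrays, and steroidogenic markers a mean over 5 of 7.11 and 6.69 against 8.01 and 9.08. Their part in the result was not tested. Of the other 2 Nogo receptors, neither was called. Rtn4r, the founding receptor, read 6.45 and 6.33 in pre-granulosa and 6.24 and 6.99 in Sertoli cells, and Rtn4rl2 differed by -0.10 with 4 sorted-cell readings at background.

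The Slit and Robo genes numbered 7. Robo4, the family member known from blood vessel endothelium, read 4.36 and 4.22 in pre-granulosa cells, both at background, and 6.78 and 7.53 in Sertoli cells. The fitted difference was 2.87 ± 0.34 (adjusted p 0.00842, limma). Because the pre-granulosa level is only a bound, the level was at least 5.17-fold higher in Sertoli cells. The 12 endothelial markers moved with it to a smaller extent: all 12 differences were above 0, the median was 0.56 and none was called. Their mean was 5.26 and 5.95 in pre-granulosa arrays, 6.10 and 6.34 in Sertoli arrays and 7.55 to 7.73 in the gonads. In each sorted group 2 of the 12, Pecam1 and Sox18, were at background and the other 10 were not. The part of endothelial RNA in the Robo4 result was not tested.

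Robo1, a receptor for Slits in many tissues, read 4.86 and 8.14 in the pre-granulosa arrays against 11.68 and 11.82 in the Sertoli arrays. The groups did not overlap and the difference was 5.25 ± 0.94, but the distance between the 2 pre-granulosa arrays kept it from being called (adjusted p 0.0321, limma). The lower reading came from the array with the excess of 3' signal, whose part in the result was not tested. Slit2, the Robo ligand, ran the other way without being called. It read 10.51 and 10.19 in pre-granulosa cells and 8.77 and 9.35 in Sertoli cells, a difference of -1.29 (adjusted p 0.0303, limma). The 3 Slit2 probe sets differed by -1.9 to -0.06. Robo2 was at background in all 4 sorted-cell arrays. Slit1, Slit3 and Robo3 differed by 0.16, 0.35 and 0.23, and none of them was called.

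**Figure D2:**
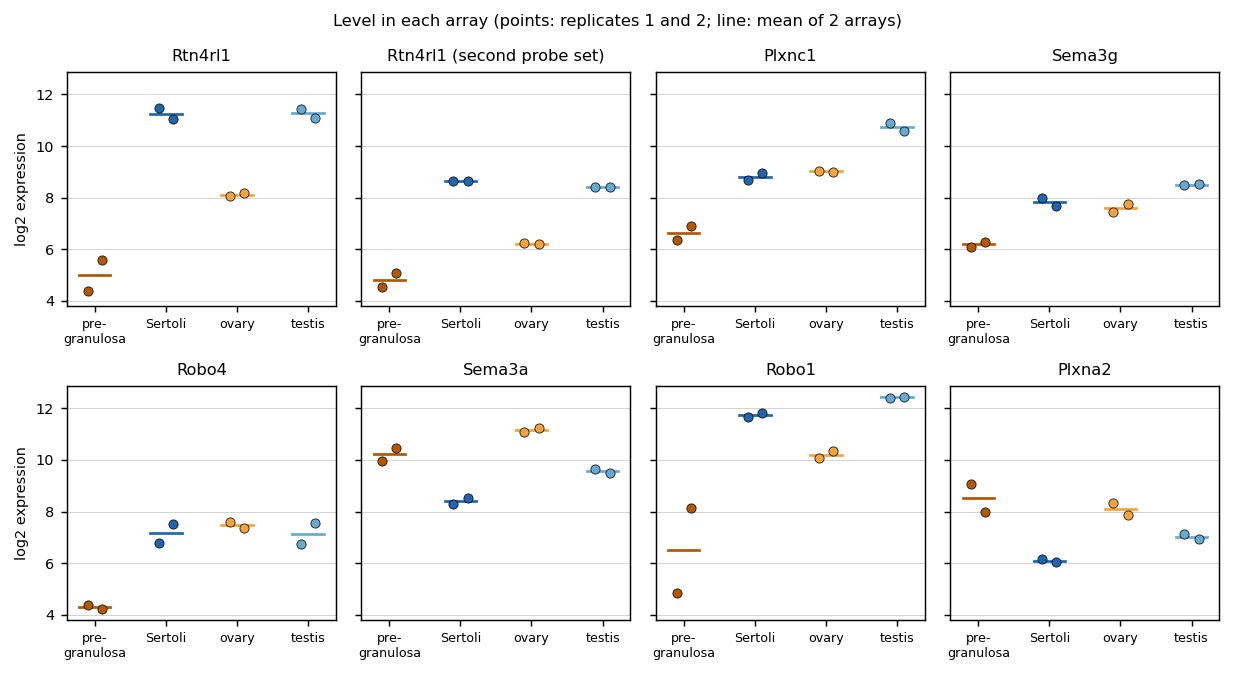
Log2 expression of 7 guidance genes in each array (points: the 2 replicates; lines: their mean), with both probe sets of Rtn4rl1. Rtn4rl1 and Robo1 are high in Sertoli cells and testis, Sema3a and Plxna2 are lower in the XY than in the XX sample of each pair, and the 2 pre-granulosa points of Robo1 lie far apart.

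Of the 20 semaphorin genes, 1 rose and 1 fell, with 2.67% of all genes called. Sema3g, a secreted class 3 semaphorin, read 6.10 and 6.27 in pre-granulosa cells and 7.98 and 7.67 in Sertoli cells, a difference of 1.64 ± 0.18 (adjusted p 0.00687, limma). Sema3a, the secreted semaphorin that repels axons through neuropilin 1 and A-type plexins, read 9.97 and 10.46 in pre-granulosa cells and 8.31 and 8.51 in Sertoli cells. It fell by 1.81 ± 0.20, a 3.49-fold change, with an adjusted p of 0.00717 (limma). The other 2 Sema3a probe sets differed by -0.92 and -0.81, neither called.

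Several membrane-bound semaphorins differed by more than 1 log2 unit without being called. Sema4a, known from immune cells, read 8.12 and 6.32 against 9.41 and 9.77, higher in both Sertoli arrays, a difference of 2.37 (adjusted p 0.0871, limma). Its second probe set 1448110_at had closer replicates, 6.79 and 6.07 against 8.51 and 8.32, and an adjusted p of 0.0186 (limma). Sema7a, a lipid-anchored semaphorin, differed by 1.42 and Sema5a by 1.31. The other Sema7a probe set differed by 0.15, and the 4 Sema5a probe sets by -0.42 to 2.51, so they disagree in size or sign. Sema6a had the largest negative difference of the family, -1.85, but its Sertoli readings of 5.95 and 4.30 lay far apart (adjusted p 0.127, limma). Sema4g, at 10.79 and 10.21 against 9.12 and 9.33, differed by -1.27 (adjusted p 0.0343, limma), and both Sertoli arrays lay below both pre-granulosa arrays. Sema3e and Sema3c differed by -0.24 and -0.49. Sema4b and Sema6d differed by 0.15 and 0.10. Over the 20 genes the median difference was 0.13.

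Of the 12 plexin and neuropilin genes, the semaphorin receptors, 1 was called, with 2.67% of all genes called. Plxnc1, the receptor of Sema7a, read 6.36 and 6.90 in pre-granulosa cells and 8.67 and 8.95 in Sertoli cells, a difference of 2.18 ± 0.23 or 4.53-fold (adjusted p 0.00603, limma). Of the 5 other Plxnc1 probe sets none was called; the largest difference was 1.94, and 1443433_at was at background in all sorted-cell arrays. Plxnb3, a receptor of Sema5a, was at background in pre-granulosa cells (4.26 and 4.12) and read 6.13 and 7.15 in Sertoli cells. The level was at least 3.63-fold higher and just missed the threshold (adjusted p 0.0112, limma). Another Plxnb3 probe set, 1418750_at, was at least 1.31-fold higher and was not called (adjusted p 0.0622, limma). Macrophage markers also differed between these arrays: the mean of 11 was 4.95 and 4.87 in pre-granulosa cells and 5.90 and 7.30 in Sertoli cells, where C1qb was called (4.49 higher). Of the 11 differences 9 were above 0, 7 of them above 1, with a median of 1.35. In pre-granulosa cells 4 of the 11 were at background, and in Sertoli cells 1, Cx3cr1. The part of macrophage RNA in the Sema4a, Plxnc1 and Plxnb3 values was not tested.

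Of the 4 A-type plexins, receptors of the class 3 semaphorins, 3 had negative differences and none was called. Plxna2 read 9.06 and 7.98 in pre-granulosa cells and 6.17 and 6.03 in Sertoli cells, a difference of -2.42 (adjusted p 0.0176, limma). A pair of its other probe sets gave -1.64 (adjusted p 0.0125, limma) and -1.85 (adjusted p 0.0302, limma), and the fourth was at background throughout. Plxna4 differed by -1.18 and Plxna3 by -0.98, while Plxna1 differed by 0.53. For Nrp1, the neuropilin that binds Sema3a, the 4 probe sets differed by -0.50 to -2.78. The largest of these rested on 9.49 and 7.69 against 6.02 and 5.60 (adjusted p 0.0422, limma), and the reported probe set gave -0.62. Plxnb2 read 10.06 and 8.48 against 9.41 and 9.41 and differed by 0.14, less than the distance between its pre-granulosa arrays. Nrp2 differed by 0.29, Plxnb1 by 0.40 and Plxnd1 by 0.50, and the transcript antisense to Plxna4 was at background in all arrays.

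None of the 8 ephrin genes or the 13 Eph receptor genes was called, with 2.67% of all genes called. Among the ligands, Efnb2 read 4.21 and 4.84 in pre-granulosa cells and 7.18 and 8.23 in Sertoli cells, a difference of 3.18 ± 0.59 (adjusted p 0.0357, limma). A second Efnb2 probe set, 1419638_at, had the opposite sign at -0.87, with 6.27 and 7.23 against 6.65 and 5.11, so the probe sets of this gene disagree. Efnb1, a transmembrane ligand that marks tissue boundaries, read 11.50 and 11.00 against 9.74 and 8.90, lower in both Sertoli arrays, a difference of -1.93 (adjusted p 0.0223, limma). Its other 2 probe sets gave -0.16 and -0.25. Efna1, at 8.63 and 7.86 against 6.90 and 6.91, differed by -1.34 (adjusted p 0.0487, limma).

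Among the Eph receptors, Ephb6, a receptor without kinase activity, read 7.05 and 6.35 in pre-granulosa cells and 7.86 and 7.94 in Sertoli cells (difference 1.2, adjusted p 0.0464, limma). Epha7 read 9.62 and 9.60 against 9.13 and 8.82, a difference of -0.64. Epha4 differed by 1.12 ± 0.93, with replicates of 4.38 and 6.94 and of 5.78 and 7.79 that overlap. Ephb1 and Ephb4, the receptor of Efnb2, differed by -0.33 and -0.51. Epha5 (0.95) had its only high reading, 6.66, in 1 Sertoli array. Of the 8 netrin and Unc5 genes none was called either, with 2.67% of all genes called, and all differences lay between -0.57 and 0.79. The largest was that of Unc5c, with overlapping readings of 5.65 and 6.32 against 8.04 and 5.52.

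The calls between the sorted cells depended on single arrays, and so did the number called over all probe sets. Leaving out 1 array at a time gave between 1 and 12 called probe sets: 1 without Sertoli replicate 2, 3 without Sertoli replicate 1, 2 without any 1 of the 4 gonad arrays, 8 and 12 when the first or the second pre-granulosa array was omitted. Rtn4rl1 1455664_at was called in all 8 omissions and 1436868_at in 7, with an adjusted p of 0.0106 (limma) without Sertoli replicate 2. Sema3a was lost without either Sertoli array or any gonad array, and Plxnc1 without these or pre-granulosa replicate 1; Sema3g and Robo4 were lost in all 8 omissions, with adjusted p-values (limma) of 0.0103 to 0.0313 and 0.0152 to 0.0345. The highest adjusted p (limma) for Sema3a was 0.0307 and for Plxnc1 0.0335, and no omission turned a sign. Robo1 differed by 3.61 when pre-granulosa replicate 1 was omitted and by 6.89 when replicate 2 was; it passed the threshold in both of these fits, with a lowest adjusted p of 0.000801 (limma), since the lone array then adds no spread of its own. With only the 4 sorted arrays in the fit 0 guidance probe sets were called, and 0 over all probe sets.

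**Figure D3:**
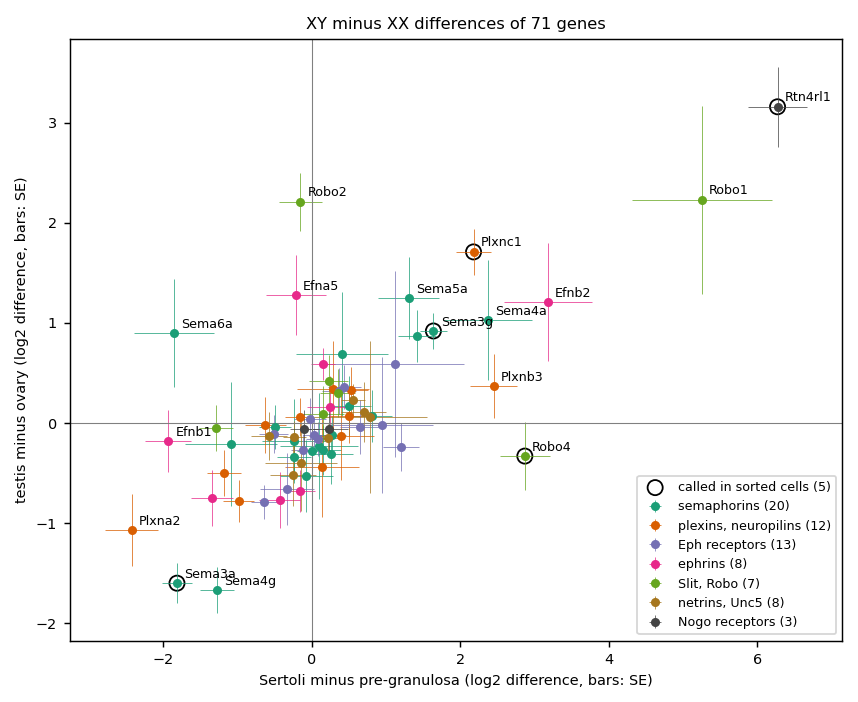
XY minus XX differences of the 71 genes in sorted cells (horizontal) and in whole gonads (vertical), in log2 units with SE bars; rings mark the 5 genes called in sorted cells. Rtn4rl1 lies at 6.27 and 3.16, Robo4 at 2.87 and -0.33, and Robo2 at -0.15 and 2.21.

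The comparison of testis with ovary asks for the same contrast in whole gonads. None of the 153 probe sets was called, while 0.215% of all probe sets and 0.352% of all genes were. At an unadjusted p of 0.05, 30 of the 153 (19.6%) passed against 9.31% of all probe sets, and at an adjusted p of 0.05, 6 (3.92%) passed against 0.708% of all probe sets. The median difference was -0.06 over the 153 and -0.02 over all probe sets. The 6 were both probe sets of Rtn4rl1, Robo2, Plxnc1, Sema3a and Sema4g.

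Rtn4rl1 read 8.06 and 8.17 in the ovary and 11.44 and 11.10 in the testis, 3.16 ± 0.40 higher (adjusted p 0.0326, limma). Its second probe set read 6.23 and 6.21 against 8.41 and 8.43 (difference 2.20, adjusted p 0.012, limma). Plxnc1 read 9.04 and 9 in the ovary and 10.88 and 10.57 in the testis, a difference of 1.71 (adjusted p 0.0417, limma). Both genes were thus higher in both testis arrays than in both ovary arrays. Sema3a, at 11.10 and 11.24 against 9.65 and 9.48, differed by -1.60 (adjusted p 0.0346, limma). Sema4g, at 8.93 and 9.10 against 7.22 and 7.47, differed by -1.67 (adjusted p 0.0473, limma). Sema3g, called in the sorted cells, read 7.44 and 7.74 in the ovary and 8.48 and 8.53 in the testis, a difference of 0.92 (adjusted p 0.132, limma).

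Robo2, a Slit receptor, read 4.91 and 4.10 in the ovary and 6.58 and 6.85 in the testis, a difference of 2.21 ± 0.29 (adjusted p 0.0384, limma). It was at background in all 4 sorted-cell arrays. Robo1 was read at 10.06 and 10.34 in the ovary and 12.39 and 12.46 in the testis, 2.23 apart; the gonad replicates were close, while the SE of 0.94 is that of the shared fit, which holds the distant pre-granulosa pair (adjusted p 0.558, limma). With only the 4 gonad arrays in the fit its adjusted p was 0.0145 (limma). Efnb2 differed by 1.21 with ovary readings of 9.26 and 7.64, and Efna5, another ephrin, by 1.28 (7.72 and 7.58 against 9.07 and 8.79, adjusted p 0.354, limma). Slit2 did not separate the gonads: 11.99 and 11.94 against 11.96 and 11.87.

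Leaving out 1 array at a time gave 0 to 3 called probe sets in the gonad comparison, the 3 without either pre-granulosa array. They included both Rtn4rl1 probe sets and Robo1. The other 6 omissions gave no gain in guidance calls, and they lowered the number called over all probe sets.

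Whether the XY minus XX difference itself differed between sorted cells and gonads was tested as an interaction. None of the 153 probe sets was called, nor was any of the 45037 (0% called), with 20 of the 153 (13.1%) at an unadjusted p of 0.05, against 11.4% of all probe sets. At an adjusted p of 0.05 the count was also 0 of 153, against 0.251% of all probe sets. The largest positive value belonged to Robo4: 2.87 in sorted cells and -0.33 in gonads, 3.20 apart (adjusted p 0.0725, limma). In the gonads Robo4 read 7.58 and 7.37 in the ovary and 6.75 and 7.54 in the testis, which overlap. Rtn4rl1 differed by 3.11 (adjusted p 0.105, limma) and 1.66 (adjusted p 0.0949, limma) between the settings, and Robo2 by -2.36 (adjusted p 0.0975, limma). Sema6a had the largest negative value, -2.75 (adjusted p 0.246, limma). No difference between the settings passed the threshold for any guidance gene.

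Sorted cells were then compared with the gonad of the same sex, which asks which guidance transcripts read higher or lower in them than in the whole gonad. The whole gonad also holds the supporting cells, so a difference does not assign a transcript to a cell type. The 2 sets of arrays appear to have been normalized separately, with array medians near 5.58 and 5.97, so each array was first centred on its median. Of the 153 probe sets, 17 (11.1%) were called for Sertoli minus testis, 7 higher and 10 lower, with 6.7% of all probe sets called, 2.97% higher and 3.73% lower. By the reported probe set 12 of 71 genes were called, against 6.87% of all genes. For pre-granulosa minus ovary 9 (5.88%) were called, 2 higher and 7 lower, with 5.51% of all called (2.43% higher, 3.08% lower), a share near the background; 7 of 71 genes were called by the reported probe set, against 5.4% of all genes. At an adjusted p of 0.05 the counts were 49 (32%) and 40 (26.1%), against 25.9% and 22% of all probe sets. Without centring, the counts were 5 higher and 18 lower in XY and 1 higher and 19 lower in XX, and the median over all probe sets moved from 0.19 to -0.21 and from 0.13 to -0.25. The median over the 153 was 0.12 and -0.06 on the centred scale.

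**Figure D4:**
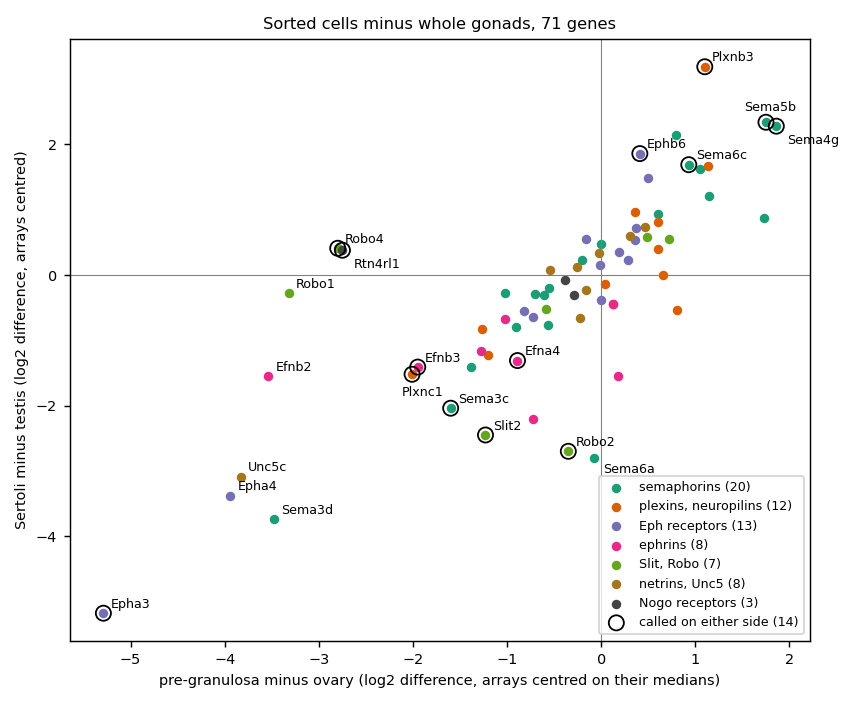
Sorted cells minus whole gonads for the 71 genes, in log2 units on arrays centred on their medians: XX horizontally, XY vertically; rings mark the 14 genes whose reported probe set was called on either side. Epha3 lies at -5.29 and -5.18, and Sema4g and Sema5b lie above 0 on both axes.

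Epha3 had the widest gap between sorted cells and gonads. This receptor read 2.96 and 3.28 in pre-granulosa and 3.34 and 3.78 in Sertoli cells, all at background, and 8.95, 8.63, 9.18 and 9.10 in the ovary and testis arrays. In Sertoli cells the level lay at least 15.6-fold under that of the testis (adjusted p 0.000612, limma) and at least 12.4-fold lower in pre-granulosa cells than in ovary (adjusted p 0.000639, limma). Probe set 1455426_at showed the same order (at least 3.90-fold and 1.84-fold lower, the second with an adjusted p of 0.0106 in limma), while 2 further Epha3 probe sets stayed at background in all arrays. Germ cell markers moved in the same direction, with a mean over 9 of 4.45 to 5.09 in sorted arrays and 9.15 to 9.27 in gonads, as did interstitial markers (6.59 to 7.52 against 9.35 to 10.37). The part of these cells in the results of this comparison was not tested.

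Of the 8 ephrin genes, 2 were called lower in Sertoli cells than in testis and 1 in pre-granulosa cells than in ovary, against 6.87% and 5.4% of all genes called. In Sertoli minus testis all 8 differences were negative, under each of the 4 scalings tried, with a median of -1.36 against 0.10 over all genes. In pre-granulosa minus ovary 6 of 8 were negative (8 of 8 without centring), with a median of -0.95 against -0.01 over all genes. These are values of the reported probe sets. Over all 17 ephrin probe sets 13 differences were negative and 4 positive in each comparison, with medians of -0.97 (XY) and -0.42 (XX). Efnb3 fell on both sides: 5.77, 5.38, 5.37 and 5.48 in the sorted arrays against 8.11 and 7.70 in ovary and 7.21 and 7.24 in testis. Its centred differences were -1.95 (adjusted p 0.00395, limma) and -1.41 (adjusted p 0.00819, limma). Efna4 was at background in the sorted cells and at 6.39 and 6.27 in the testis, at least 2.23-fold lower in Sertoli cells (adjusted p 0.00461, limma). Efna2 read 9.73 to 10.59 in sorted cells and 11.40 to 11.76 in gonads, with differences of -1.28 and -1.17 that were not called.

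Several secreted ligands were also lower. Slit2 read 8.77 and 9.35 in Sertoli cells against 11.96 and 11.87 in testis, a fall of 5.48-fold (adjusted p 0.00261, limma); the difference in XX was -1.23 (adjusted p 0.0165, limma). Sema3c fell on both sides, from 8.86 and 8.88 in testis to 6.14 and 6.74 in Sertoli cells (-2.04, adjusted p 0.00416, limma) and from 9.04 and 8.79 in ovary to 6.93 in both pre-granulosa arrays (-1.60, adjusted p 0.00807, limma). Sema3e was called at probe set 1419717_at, at background in all sorted arrays and between 5.15 and 5.74 in the gonads, at least 1.35-fold lower in XY and at least 1.13-fold lower in XX. Sema3d read 3.20 to 5.05 in sorted cells and 7.45 to 8.49 in gonads, with adjusted p-values (limma) of 0.0113 and 0.0152. The netrin receptor Unc5c was called at probe set 1419592_at. There the Sertoli arrays were at background and the testis read 6.93 and 6.64, at least 3.06-fold higher. The reported Unc5c probe set, 1449522_at, is brighter and was above background in both Sertoli arrays, at 8.04 and 5.52. It was also lower there than in testis (10.13 and 10.39), by 3.09, but missed the threshold with an adjusted p of 0.0325 in limma.

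Among the receptors of Slits and semaphorins, the Robo2 level in Sertoli cells lay at least 2.92-fold under that of the testis (adjusted p 0.00396, limma). Plxnc1 was lower in the sorted cells of both sexes (-1.52, adjusted p 0.00911, and -2.01, adjusted p 0.00500, limma), although it rose from pre-granulosa to Sertoli cells. Robo4 fell in pre-granulosa cells, where it was at least 4.96-fold below the ovary (adjusted p 0.00576, limma), and differed by 0.41 between Sertoli cells and testis. Rtn4rl1 fell by 2.75 in pre-granulosa minus ovary (adjusted p 0.00844, limma) and differed by 0.38 in Sertoli minus testis. That call was lost with quantile normalization over all 8 arrays. The second Rtn4rl1 probe set, 1455664_at, differed by -1.04 in pre-granulosa minus ovary and was not called (adjusted p 0.0204, limma). For neither gene was the gap between the XX and XY values of this sorted minus gonad contrast called. The interaction had an adjusted p (limma) of 0.0725 for Robo4 and 0.105 for Rtn4rl1. All 12 endothelial markers were likewise below the ovary in pre-granulosa cells, 4 of them called, with a median of -1.67; their part in the Robo4 result was not tested.

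A smaller group was higher in the sorted cells. Sema4g read 10.79 and 10.21 in pre-granulosa cells against 8.93 and 9.10 in ovary, and 9.12 and 9.33 in Sertoli cells against 7.22 and 7.47 in testis. It rose by 1.86 (adjusted p 0.00577, limma) and 2.28 (adjusted p 0.00326, limma). Sema5b, at 10.57 and 10.65 in Sertoli cells against 8.57 and 8.77 in testis, rose by 2.34 (adjusted p 0.00538, limma), and its XX difference was 1.75 (adjusted p 0.0127, limma). Sema6c rose in Sertoli cells at a pair of probe sets, by 1.69 and 2.71. Ephb6 rose in Sertoli cells by 1.86 (adjusted p 0.00591, limma). Plxnb3, at background in testis, was at least 4.77-fold higher in Sertoli cells (adjusted p 0.00321, limma). Another Plxnb3 probe set, 1418750_at, was at least 1.72-fold higher and was not called (adjusted p 0.0161, limma). Smaller calls were those of Ntn1 (probe set 1422987_at, at least 1.87-fold in Sertoli cells) and Sema5a in pre-granulosa cells (probe set 1459109_at, 0.97). The latter was at background in all 8 arrays, so that it gives no fold. Without centring, or with quantile normalization over all 8 arrays, both of these calls and the 1.69 rise of Sema6c were lost.

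With 1 array left out, the counts of called guidance probe sets also depended on the array. The number called over all probe sets moved with them. For Sertoli minus testis the counts were 0 without either testis array, 4 without Sertoli replicate 2 or either ovary array, 7 without Sertoli replicate 1 and 27 without either pre-granulosa array. For pre-granulosa minus ovary they were 0 without either ovary array, 1 without either testis array, 7 without either Sertoli array, 6 without pre-granulosa replicate 1 and 19 without replicate 2. Of the 17 calls for Sertoli minus testis, 11 were kept in only 2 of the 8 omissions, those of a pre-granulosa array: Ephb6, Sema3e, Efna4, Ntn1, Efnb3, Plxnc1, Sema5b, Sema4g, both of Sema6c and Epha3 1455426_at. Sema3c was kept in 3, Unc5c, Plxnb3 and Robo2 in 4, and Slit2 and Epha3 1425575_at in 6, lost without a testis array. Of the 9 calls for pre-granulosa minus ovary, Sema5a was kept in 0 of 8, Sema3e and Sema4g in 1, Robo4, Sema3c and Rtn4rl1 in 2, Efnb3 and Plxnc1 in 4, and Epha3 in 6, lost without an ovary array. The highest adjusted p over the omissions (limma) was 0.0763 on the Sertoli side (Plxnc1) and 0.061 on the pre-granulosa side (Sema3e). The highest adjusted p (limma) for Epha3 was 0.0162 without a testis array and 0.0127 without an ovary array.

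The binding partners and co-receptors outside the families were read as a list of 29 genes. In Sertoli minus pre-granulosa 1 of 29 (3.45%) was called, a share near the 2.67% of all genes. Tnfrsf19 is TROY, a co-receptor that signals with the founding Nogo receptor, Rtn4r. It read 9.79 and 11.13 in pre-granulosa cells and 6.05 and 5.99 in Sertoli cells and fell by 4.44 (adjusted p 0.00510, limma). Its testis minus ovary difference was -2.92 (adjusted p 0.0618, limma). Tnfrsf19 thus read higher in the XX samples, where Rtn4rl1 read lower. Rtn4, which encodes Nogo itself, read between 12.10 and 12.32 in every array. Ret, a receptor kinase, had a difference of -4.10 with Sertoli readings of 3.97 and 8.04 (adjusted p 0.150, limma). Ngfr, the p75 co-receptor of Rtn4r, was called in both sorted minus gonad comparisons (-3.13 and -3.18). Its readings were 5.66 to 6.23 in sorted cells and 9.32 to 9.58 in gonads. The list's median was 0.09 for Sertoli minus pre-granulosa, and 0 of 29 were called for testis minus ovary, with 8 (27.6%) at an unadjusted p of 0.05 in limma. Over all genes 0.352% were called there and 11.5% passed the unadjusted p.

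Of the 43 intracellular effectors measured, 3 (6.98%) were called in Sertoli minus pre-granulosa, 1 higher and 2 lower, against 2.67% of all genes. Pak3, a kinase activated by Rac and Cdc42, read 6.90 and 6.57 in pre-granulosa cells and 9.99 and 10.14 in Sertoli cells (difference 3.33, adjusted p 0.00162, limma). It was also the 1 of 43 effectors called in the gonads (2.33%, against 0.352% of all genes), at 5.46 and 5.88 in ovary and 9.08 and 8.75 in testis (3.24, adjusted p 0.00458, limma), and it rose from gonad to sorted cells in both sexes by 1.55 and 1.45. Chn2, a Rac-inactivating protein, fell from 7.28 and 7.34 to 4.95 and 4.90 (-2.38, adjusted p 0.00237, limma). Dpysl3, a relative of the semaphorin mediator CRMP2, fell from 8.85 and 8.72 to 7.30 and 7.26 (-1.51, adjusted p 0.00687, limma) and read 10.67 to 11.48 in the gonads.

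In Sertoli minus testis 7 of 43 effectors (16.3%) were called, against 6.87% of all genes: 3 higher (Pak3, Tiam1 by 1.81 and Srgap3 by 1.27) and 4 lower (Dpysl3 by -3.67, Vav3 by -1.89, Chn2 by -1.17 and Crmp1 by -1.10). In pre-granulosa minus ovary 4 (9.3%) were called, against 5.4% of all genes, with Pak3 higher and Dpysl3, Abl2 and Crmp1 lower. The list's medians were 0.13, 0.01, -0.29 and -0.07 in the order of the 4 comparisons. Among the XY minus XX calls, Dpysl3 was lost in all 8 single-array omissions, with adjusted p-values (limma) of 0.0106 to 0.0357. Tnfrsf19 was lost without any Sertoli or gonad array (highest adjusted p 0.0307, limma), and Pak3 without Sertoli replicate 2 or either testis array (0.0118, limma). Chn2 was lost without either Sertoli or either ovary array (highest adjusted p 0.0163, limma). The call of Pak3 in pre-granulosa minus ovary was lost in all 8 omissions (0.0108 to 0.0526, limma), and its call in the gonads was lost without any Sertoli or gonad array (highest adjusted p 0.0815, limma).

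**Figure D5:**
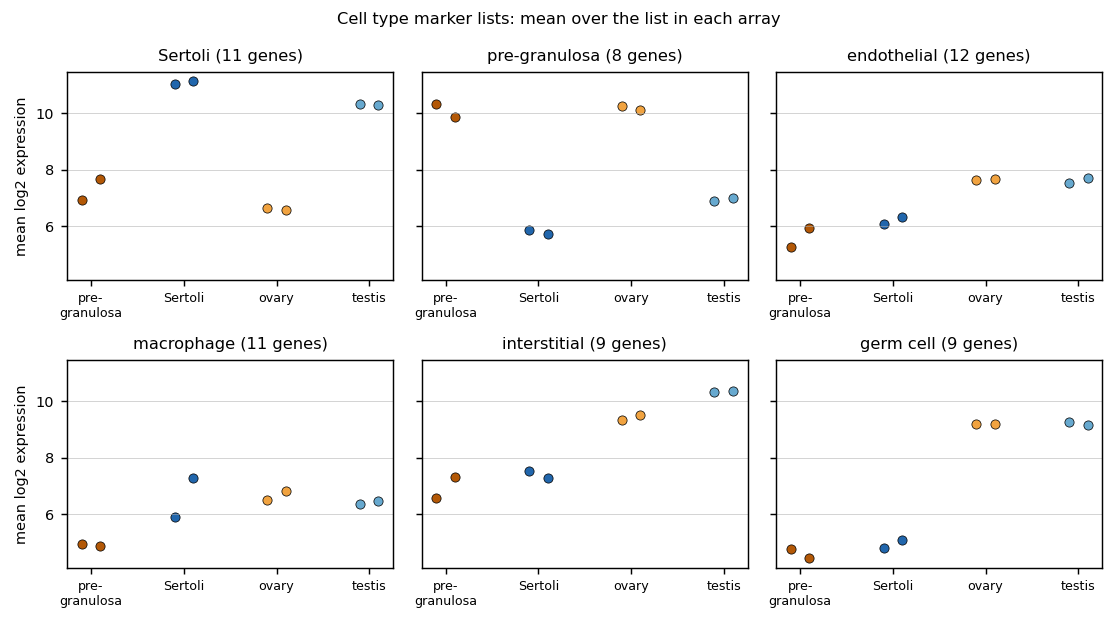
Mean log2 expression of 6 cell type marker lists in each array, with the number of genes measured. The Sertoli and pre-granulosa lists separate the sorted cells; the macrophage list is highest in the second Sertoli array (7.30), and germ cell markers lie at 4.45 to 5.09 in sorted cells and 9.15 to 9.27 in gonads.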

How the data were processed

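Per the labels, amplified and biotin-labelled cDNA was hybridised to Affymetrix Mouse Genome arrays. The deposited values are log2 expression per probe set, made by the authors with RMA per the submitters' processing notes, with no version. Ranked values differed by at most 0.175 within the 4 sorted arrays and 0.146 within the 4 gonad arrays, with a median gap of 0.38 between the sets, so the sets appear to have been normalized separately. Of 45101 probe sets, 64 array controls were left out; 34945 of the rest had a single symbol, 932 several and 9160 none. All 153 guidance probe sets matched RefSeq by gene ID.

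Tests used limma (3.58.1, R 4.3.3): 1 mean per group over 8 arrays, eBayes, two-sided p-values, Benjamini-Hochberg adjustment over 45037 probe sets, called at 0.01 (4 residual degrees of freedom, no covariate). XY minus XX and the interaction used values as deposited; sorted minus gonad used values less each array's median. A group at or under 4.78 in both arrays was set to that level for "at least" folds. For sorted minus gonad these folds are on the centred scale and depend on the centring. Precision is limited by the small number of arrays. The script was tested on simulated data. The genes named with values were those called in any of 5 comparisons, the 3 per family with the highest mean and the 2 per family with the largest difference in either XY minus XX comparison, plus others named to complete a family, after their values were seen. The members and lists were chosen with earlier results of these data known. Whether replicate numbers pair the samples is not known. Deviations of same-numbered arrays correlated at 0.00944 (sorted cells) and 0.0146 (gonads), and between -0.156 and 0.0493 over all pairs of groups. These values cannot settle it. Alternatives were other normalizations, centring, a filter on dim probe sets, other moderation, a weight per group, only the arrays compared, a replicate block, a threshold of 0.05, and omission of each array.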

Additional observations from a re-analysis of the deposited data

How the results depend on the processing

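The count of called guidance probe sets was the least stable value. For Sertoli minus pre-granulosa it was 6, and 2 with a weight per group, 0 with only the 4 arrays compared, 2 with the replicate block, 23 at a threshold of 0.05, and 1 to 12 with 1 array left out. For testis minus ovary it was 0, and 6 with a weight per group, 1 with only the 4 arrays compared, 6 at 0.05, and 0 to 3 with 1 array left out. For Sertoli minus testis it was 17, and 9 with dim probe sets filtered out, 31 with a weight per group, 4 with the replicate block, 49 at 0.05, and 0 to 27 with 1 array left out. For pre-granulosa minus ovary it was 9, and 20 without centring, 3 with a weight per group, 0 with only the 4 arrays compared, 2 with the replicate block, 40 at 0.05, and 0 to 19 with 1 array left out. The interaction gave 0 under all alternatives run. Counts over all probe sets moved too. Sertoli minus pre-granulosa had 816, and 264 with a weight per group, 0 with only the 4 arrays compared and 341 with the block. Testis minus ovary had 97, and 394, 80 and 17 in that order. Sertoli minus testis had 3019, and 5789, 2290 and 977. Pre-granulosa minus ovary had 2482, and 1043, 0 and 929. The cause of these changes was not tested, except that an omission or a 4-array fit leaves fewer arrays. Since it is not known whether the replicate numbers mark pairs, no conclusion is drawn from calls lost under the block. No called difference changed sign under any alternative. Over the probe sets of the named genes, 3729 alternative values kept their sign and their side of the threshold, 239 lost a call, 91 gained one, and 109 changed sign while uncalled in both fits. Signals at background limit what could be seen of 16 probe sets.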
